A study of Rattus norvegicus with 10 samples.

Results

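The transcripts described here are those of 9 genes that mark mast cells: the tryptases Tpsb2 and Tpsab1, the carboxypeptidase Cpa3, the chymase family proteases Mcpt1, Mcpt2 and Cma1, the histamine-forming enzyme Hdc, and the IgE receptor chains Fcer1a and Ms4a2. They were measured in mammary tumours of female Sprague-Dawley rats, 5 from daughters of dams on a Western-style diet (WD1 to WD5) and 5 from daughters of dams on a control diet (CD1 to CD5). Probes were taken by gene symbol, which gave 10 of the 41012 probes and 8 of the 9 genes. Of these, 7 genes were among the 16779 whose probe stood well above background on 5 or more of the 10 arrays. The Western-style diet was high in fat and low in fibre and trace elements. Dams of each group received their diet on gestational days 12 to 20 and postnatal days 1 to 21. After weaning all daughters of both groups had control diet, and each received, at 3 weeks of age, 1 intraperitoneal dose (50 mg/kg) of the carcinogen N-methyl-N-nitrosourea. Tubular or papillary tumours were taken at 110 days, and the design asks whether the diet of the dam alters gene expression in them. Dams and litters are not named in the labels, and every p-value below measures the spread between tumours.

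Mast cells are tissue-resident immune cells that store proteases and histamine in granules and release them when antigen cross-links IgE on their surface. Tryptases, chymases and carboxypeptidase A are packed in the granule on proteoglycans, and histamine is made in the cell from histidine before it is stored. In mammary tissue and its tumours mast cells lie in the stroma, around vessels and ducts. In rodents the protease set is used to tell connective tissue mast cells from mucosal ones.

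The upstream sequences of 4 of the genes are shown because Tpsb2 and Tpsab1 are neighbouring tryptase genes whose levels differed in behaviour across the tumours, while Cpa3 and Hdc, on other chromosomes, followed Tpsb2 closely. Each is the 250 bases before the transcription start from RefSeq (GRCr8), written 5′ to 3′ on the strand of the gene. Capitals mark GATAA or its reverse complement TTATC, the core of GATA factor motifs, and CATGTG or its reverse complement CACATG, an E-box of the kind that MITF binds. The Tpsb2 window is chr10:14886060-14886309 on the plus strand, that of Tpsab1 is chr10:14867303-14867552 on the minus strand, that of Cpa3 is chr2:104673238-104673487 on the minus strand, and that of Hdc is chr3:134318705-134318954 on the minus strand.
Tpsb2: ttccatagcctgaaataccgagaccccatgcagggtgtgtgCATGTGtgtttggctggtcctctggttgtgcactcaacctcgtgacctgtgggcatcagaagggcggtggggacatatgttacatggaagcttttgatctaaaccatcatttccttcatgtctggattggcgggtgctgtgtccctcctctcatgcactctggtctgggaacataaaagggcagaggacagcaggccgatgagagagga
Tpsab1: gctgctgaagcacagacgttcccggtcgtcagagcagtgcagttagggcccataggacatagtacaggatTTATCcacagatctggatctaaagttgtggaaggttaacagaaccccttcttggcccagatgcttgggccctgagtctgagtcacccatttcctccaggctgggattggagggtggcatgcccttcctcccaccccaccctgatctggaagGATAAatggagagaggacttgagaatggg
Cpa3: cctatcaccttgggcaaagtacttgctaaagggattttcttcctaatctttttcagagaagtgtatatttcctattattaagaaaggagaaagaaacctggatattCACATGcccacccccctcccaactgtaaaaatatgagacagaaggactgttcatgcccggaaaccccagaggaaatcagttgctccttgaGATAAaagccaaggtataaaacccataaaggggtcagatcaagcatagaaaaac
Hdc: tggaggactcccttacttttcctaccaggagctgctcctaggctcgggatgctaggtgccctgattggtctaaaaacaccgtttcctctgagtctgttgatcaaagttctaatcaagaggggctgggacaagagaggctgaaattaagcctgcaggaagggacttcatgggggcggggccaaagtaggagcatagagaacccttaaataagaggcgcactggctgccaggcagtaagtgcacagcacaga

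In these letters Tpsb2 held CATGTG 209 to 204 bases before the start and no GATAA. Tpsab1 held GATAA at 29 to 25 bases and TTATC at 180 to 176 bases before the start, and no CATGTG. Cpa3 held GATAA at 54 to 50 bases and CACATG at 144 to 139 bases, and the Hdc window held neither motif. The Tpsb2 and Tpsab1 windows aligned over 92 bases, of which 72 were identical (78.3%). Across the 7 genes of the set with a sequence in the table, 5 windows held GATAA, against 23.5% of 33469 promoters of the same length. CATGTG was in 3 of the 7 (Tpsb2, Cpa3 and Fcer1a), against 12.1% of all promoters. The wider E-box CANNTG, of which CATGTG is a case, was in 5 of the 7, against 65.5%. A match in these letters is a description of the window and not a binding site.

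Levels are log2 spot signals minus the 75th percentile of the array, so 0 is that percentile. The 75th percentile of intensity lay between 72.8 and 170 on WD arrays and between 85.0 and 226 on CD arrays, an array had 16685 to 21905 probes well above background, and no spot was saturated. The epithelial genes Krt8, Krt18, Krt19, Epcam and Cdh1 and the basal genes Krt5 and Krt14 were well above background on 10 of 10 arrays, and Krt18 lay between 8.24 and 9.10. The arrays lay on 3 slides, each with both groups and with a scan of its own; slide and scan cannot be told apart. Dim probes read higher on WD arrays: the 15989 probes that were not well above background on any array had a median level of -4.00 in WD and -4.70 in CD, with a median difference of 0.56. Their part in the differences of the dim genes below was not tested.

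In WD tumours 6 of the 7 measured mast cell genes had lower mean levels than in CD tumours, by 1.36-fold to 3.10-fold, and Tpsab1 differed by 1.02-fold. The median difference of the 7, WD minus CD, was -1.21 on the log2 scale, where the median of all 16779 genes was 0.01 and 48.6% of them were lower in WD. The 6 lower genes varied together across tumours (median Pearson r 0.872), so their count is not 6 independent results. The median of the 7 was -0.62 with normexp and -0.70 in the authors' series matrix. None of the 7 passed limma's test with Benjamini-Hochberg adjustment, as none of the 16779 genes did (0.00%, lowest adjusted p 0.136). At an unadjusted p under 0.05 limma gave 1 of the 7, Tpsb2, lower in WD, beside 1295 of all genes (7.72%) lower and 1308 (7.80%) higher. The split of all genes depends on the processing: 1295 of 2603 such genes were lower here, against 1438 of 2289 in the authors' series matrix, 148 of 496 with normexp and 1058 of 7055 without a filter on dim probes. For all 10 probes the WD and CD tumours overlapped, while 2.30% of all genes had every WD tumour below every CD tumour and 3.64% had groups that did not overlap in either direction. In bulk tumours, fewer mast cells and less RNA per mast cell cannot be told apart.

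**Figure D1:**
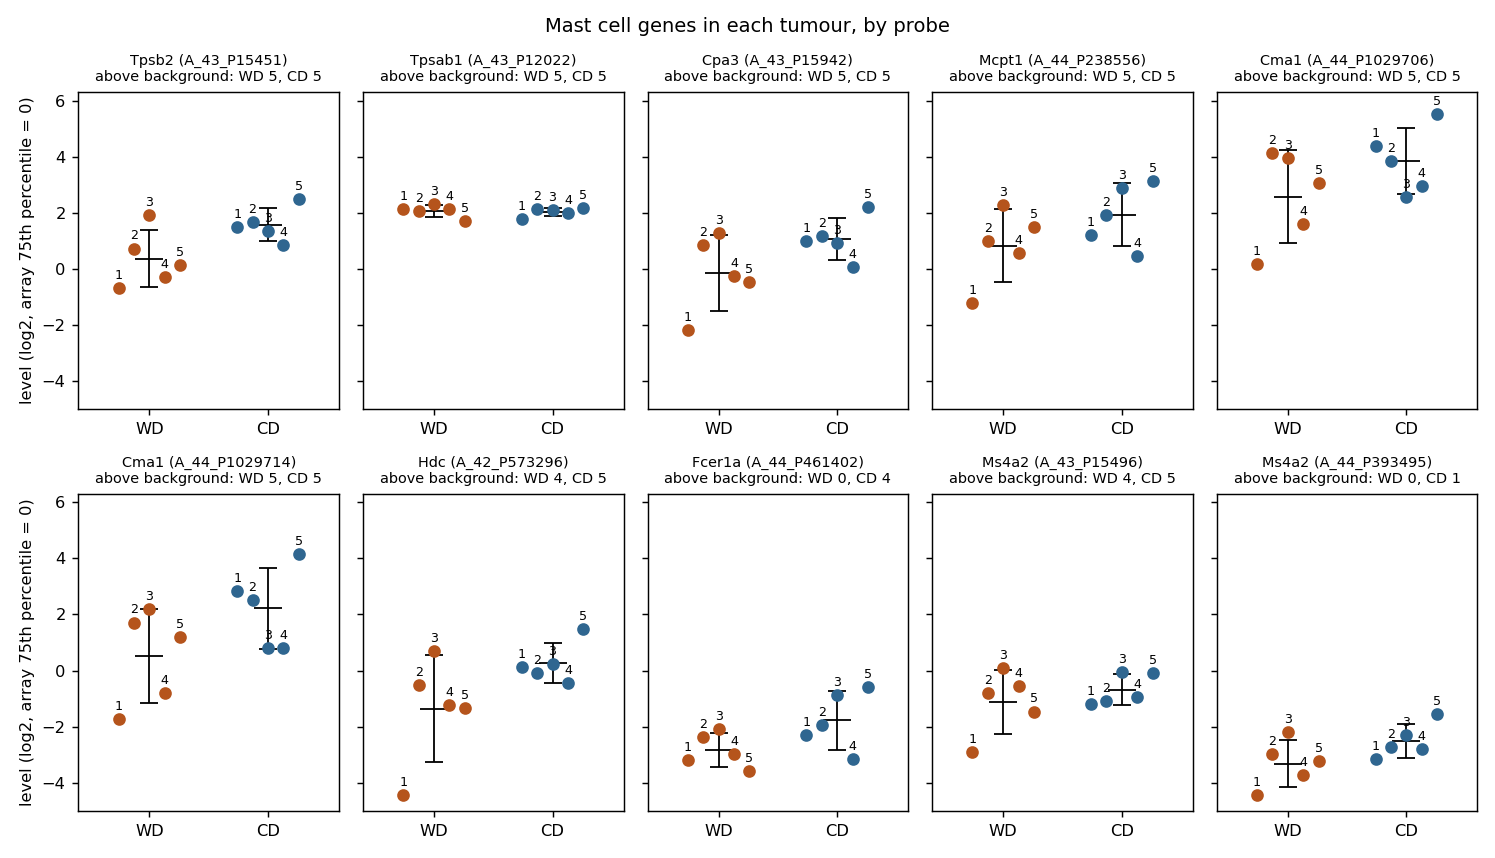
Level of each probe of the mast cell genes (log2, with the 75th percentile of the array at 0, same axis in all panels) in 5 WD tumours (left, orange) and 5 CD tumours (right, blue). Points carry the replicate number, bars are mean ± SD, and panel titles give the number of arrays well above background; WD1 is the lowest tumour in most panels, and Tpsab1 stays between 1.72 and 2.30.

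Tpsb2 (probe A_43_P15451) encodes the beta 2 tryptase, known in the mouse as mast cell protease 6 and stored in granules of connective tissue mast cells. Its level was -0.69, 0.73, 1.93, -0.29 and 0.15 in WD1 to WD5, against 1.51, 1.67, 1.35, 0.86 and 2.48 in CD1 to CD5. WD1, WD2, WD4 and WD5 were below all 5 CD tumours, and only WD3 lay among them. The means were 0.36 ± 1.02 in WD and 1.57 ± 0.59 in CD (SD, n = 5 each), a difference of -1.21 (95% interval -2.21 to -0.21), which is 2.31-fold lower in WD. In limma the unadjusted p was 0.0224 and the adjusted p 0.254, and an exact permutation test (two-sided) gave p = 0.063, where 0.0079 is the smallest that 252 splits allow. On slides 1, 2 and 3 the difference was -1.65, -1.10 and -1.04. With normexp background correction it was -0.74.

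Tpsab1 (A_43_P12022), the neighbouring tryptase gene, known in the mouse as mast cell protease 7, did not share this pattern. The reading rests on 1 probe, and whether that probe follows only the transcript of Tpsab1 was not tested. Its level was 2.14, 2.05, 2.30, 2.15 and 1.72 in WD1 to WD5, against 1.79, 2.14, 2.08, 2.00 and 2.16 in CD1 to CD5. The tumours overlapped throughout and spanned 0.58 in all, a 1.50-fold range, where Tpsb2 spanned 3.17. The means were 2.07 ± 0.22 in WD and 2.03 ± 0.15 in CD (SD, n = 5 each), a difference of 0.04 (95% interval -0.29 to 0.36; limma adjusted p 0.929, exact permutation p = 0.77). That interval leaves out the difference of -1.21 seen for Tpsb2, but it overlaps the interval of Tpsb2 (-2.21 to -0.21). The 2 genes were not tested against each other. The sign of the small Tpsab1 difference turned with the slide as a block (-0.02) and with array brightness as a covariate (-0.09). The SD of Tpsab1 over the 10 tumours, 0.18, was at the 5.63th percentile of all genes tested, while that of Tpsb2 was at the 96.5th. Under normexp the ranges were closer, 1.29 for Tpsab1 and 1.76 for Tpsb2, and in the authors' series matrix they were 0.43 and 2.17.

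Cpa3 (A_43_P15942) encodes carboxypeptidase A3, the zinc protease that mast cells store beside chymase. Its level was -2.19, 0.85, 1.28, -0.25 and -0.48 in WD1 to WD5, against 0.98, 1.16, 0.93, 0.08 and 2.19 in CD1 to CD5. WD1, WD4 and WD5 were below every CD tumour, and WD2 and WD3 lay within the CD range. The means were -0.16 ± 1.35 in WD and 1.07 ± 0.75 in CD (SD, n = 5 each), a difference of -1.22 or 2.33-fold lower in WD (limma unadjusted p 0.0633, adjusted p 0.347; exact permutation p = 0.095). The tumours spanned 4.38, a 20.8-fold range. On slides 1, 2 and 3 the difference was -1.82, -1.04 and -1.01. It was -0.71 without WD1, -0.62 with normexp and -0.70 in the authors' series matrix.

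Cma1, the alpha chymase (known in the mouse as mast cell protease 5), had probes A_44_P1029706 and A_44_P1029714 on the array. With the brighter, A_44_P1029706, the level was 0.18, 4.11, 3.94, 1.58 and 3.07 in WD1 to WD5, against 4.37, 3.86, 2.57, 2.96 and 5.51 in CD1 to CD5. WD1 and WD4 were below every CD tumour and the other WD tumours were not. The means were 2.58 ± 1.67 in WD and 3.85 ± 1.17 in CD (SD, n = 5 each), a difference of -1.27 or 2.42-fold lower in WD (limma adjusted p 0.442, exact permutation p = 0.22). The other probe read -1.72, 1.71, 2.20, -0.79 and 1.20 in WD1 to WD5, against 2.84, 2.51, 0.80, 0.80 and 4.15 in CD1 to CD5. It gave a difference of -1.70 or 3.24-fold lower in WD, with a limma adjusted p of 0.352 over 19745 probes and an exact permutation p of 0.14. Both probes put WD1 and WD4 lowest and CD5 highest, and they had a Pearson r of 0.981 over the 10 tumours. Cma1 spanned 5.32 by the brighter probe, a 40.0-fold range, and its difference was -0.68 without WD1.

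Mcpt1 (A_44_P238556) encodes a rat chymase of the same family. The RefSeq entry behind this probe carries both rMCP-1 and rMCP-2 among its older names. These are the chymases used in the rat for connective tissue and for mucosal mast cells, so the probe does not assign the signal to either kind. Mcpt2 has no entry of that symbol in the RefSeq table and no level is given for it. The RefSeq entry of Mcpt1l1, which has no probe, carries Mcpt1 and rMCP-1 among its older names but not rMCP-2. Signal from related genes (Mcpt1l1 and other family members without a probe) may add to the Mcpt1 signal. Its level was -1.21, 0.98, 2.29, 0.56 and 1.50 in WD1 to WD5, against 1.22, 1.94, 2.87, 0.45 and 3.14 in CD1 to CD5. The groups overlapped, with CD4 below WD2, WD3, WD4 and WD5. The means were 0.83 ± 1.31 in WD and 1.92 ± 1.12 in CD (SD, n = 5 each), a difference of -1.10 or 2.14-fold lower in WD (limma adjusted p 0.435, exact permutation p = 0.20). On slide 3 the difference ran the other way, 0.67, against -2.05 and -1.58 on slides 1 and 2. It was -0.59 without WD1 and -0.71 with normexp.

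Hdc (A_42_P573296) encodes histidine decarboxylase, the enzyme that makes histamine. Its level was -4.44, -0.53, 0.71, -1.22 and -1.34 in WD1 to WD5, against 0.14, -0.07, 0.25, -0.43 and 1.47 in CD1 to CD5. All WD tumours but WD3 were below every CD tumour, and WD1, the only array on which the probe was not well above background, was lowest by far. The means were -1.36 ± 1.90 in WD and 0.27 ± 0.72 in CD (SD, n = 5 each), a difference of -1.63 (95% interval -3.33 to 0.06) or 3.10-fold lower in WD. The limma unadjusted p was 0.0575 and the adjusted p 0.336, and the exact permutation p was 0.079. On slides 1, 2 and 3 the difference was -2.41, -1.11 and -1.20. The size depends on WD1 and on the background: the difference was -0.87 without WD1, -0.53 with normexp and -0.70 in the authors' series matrix. Hdc spanned 5.90 from a WD1 level not well above background, and 1.82 with normexp.

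The IgE receptor chains were dim. Fcer1a (A_44_P461402) encodes the alpha chain, which binds IgE. It read -3.17, -2.36, -2.07, -2.98 and -3.58 in WD1 to WD5, against -2.29, -1.94, -0.87, -3.16 and -0.60 in CD1 to CD5. It was well above background on 0 of 5 WD arrays and on 4 of 5 CD arrays, all but CD4, and so was left out by the filter. WD levels therefore give no measured fold. The CD mean was 1.47-fold higher than the lowest signal well above background on WD arrays, or the probe's own signal where that was higher. That CD mean includes the CD4 reading, which was not well above background, so 1.47-fold is not a strict lower bound. In a limma fit of all 36061 genes without the filter the difference was -1.06 (unadjusted p 0.0447, adjusted p 0.238), and it was -0.18 with normexp, -0.35 in the authors' series matrix and -1.69 with array brightness as a covariate. The exact permutation p was 0.087.

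Ms4a2 encodes the beta chain, which amplifies the receptor's signal. By probe A_43_P15496 it read -2.89, -0.80, 0.10, -0.55 and -1.46 in WD1 to WD5, against -1.19, -1.09, -0.05, -0.95 and -0.09 in CD1 to CD5. WD2, WD3 and WD4 lay within or above the CD range, WD1 and WD5 below it, and WD1 was not well above background. The means were -1.12 ± 1.13 in WD and -0.67 ± 0.56 in CD (SD, n = 5 each), a difference of -0.45 or 1.36-fold lower in WD (limma adjusted p 0.683, exact permutation p = 0.50). Without WD1 the difference was -0.0039, so it rested on that tumour. It was -0.75 without WD3, -0.29 without CD3, -0.06 with normexp, -0.11 in the authors' series matrix and -1.05 with array brightness as a covariate. The probe A_44_P393495 of the same transcript was well above background on 0 WD arrays and 1 CD array, CD5, and gives no fold. It read -4.45 to -2.20 in WD and -3.16 to -1.55 in CD.

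**Figure D2:**
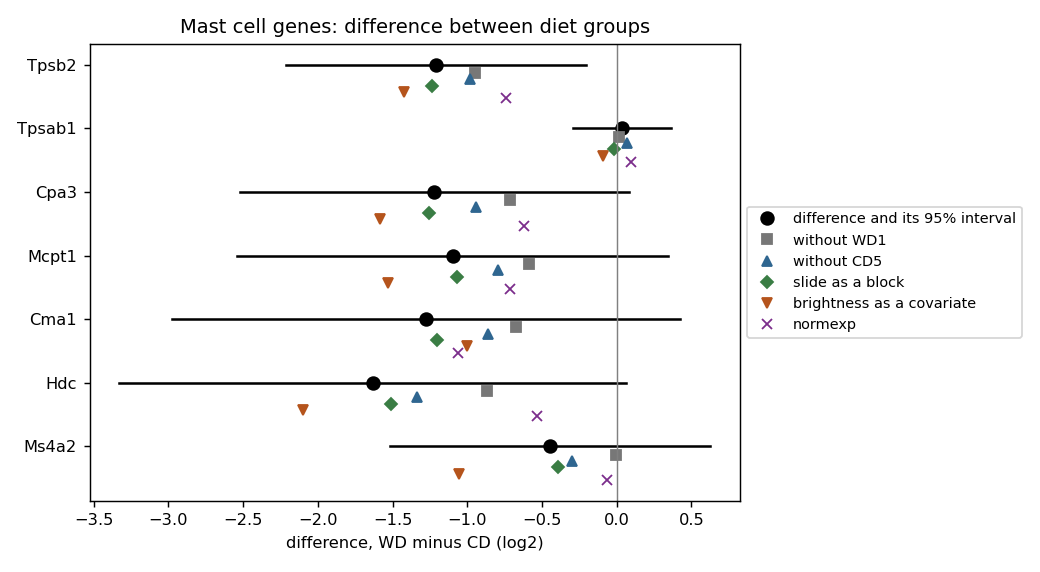
Difference in level, WD minus CD (log2), for the 7 measured genes. Black points and lines are the limma estimate and its 95% interval, and coloured marks are the same difference without WD1, without CD5, with the slide as a block, with array brightness as a covariate and with normexp; 6 genes lie below 0 in all of these, with Ms4a2 at -0.0039 without WD1, and Tpsab1 lies on both sides of 0.

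The tumours of each group differed widely. WD1 was the lowest of the 10 tumours for 6 of the 7 genes, all but Tpsab1, for which WD5 was lowest. WD3 was on the high side of both groups: it was the highest tumour for Tpsab1 and Ms4a2 and the next highest, after CD5, for Tpsb2, Cpa3 and Hdc. CD5 was the highest tumour for 5 of the 7. With each gene scaled to mean 0 and SD 1 and Tpsab1 left out, the mean over the genes was -2.09 in WD1, -0.59 in WD4, -0.45 in WD5, 0.08 in WD2 and 0.79 in WD3, against -0.22 to 1.33 in the CD tumours. WD1 had 20157 probes well above background and a median r of 0.942 with the other arrays, where the 10 arrays ran from 0.937 to 0.967. Without WD1, 6 of the 7 genes were lower in WD and the median difference was -0.68. Without CD5 it was -0.86. The spread of the genes between tumours was wide by the standard of these arrays: the SD over the 10 tumours of Hdc, Cma1, Mcpt1 and Cpa3 lay at the 99.5th, 99.4th, 98.7th and 98.4th percentile of all genes, and that of Ms4a2 at the 93.7th. Normexp adds an offset of 50 to the signals. With it the ranges were narrower: 1.82 against 5.90 for Hdc, 3.77 against 5.32 for Cma1, 2.76 against 4.35 for Mcpt1 and 1.99 against 4.38 for Cpa3. The range of Tpsab1 was wider with normexp, 1.29 against 0.58.

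**Figure D3:**
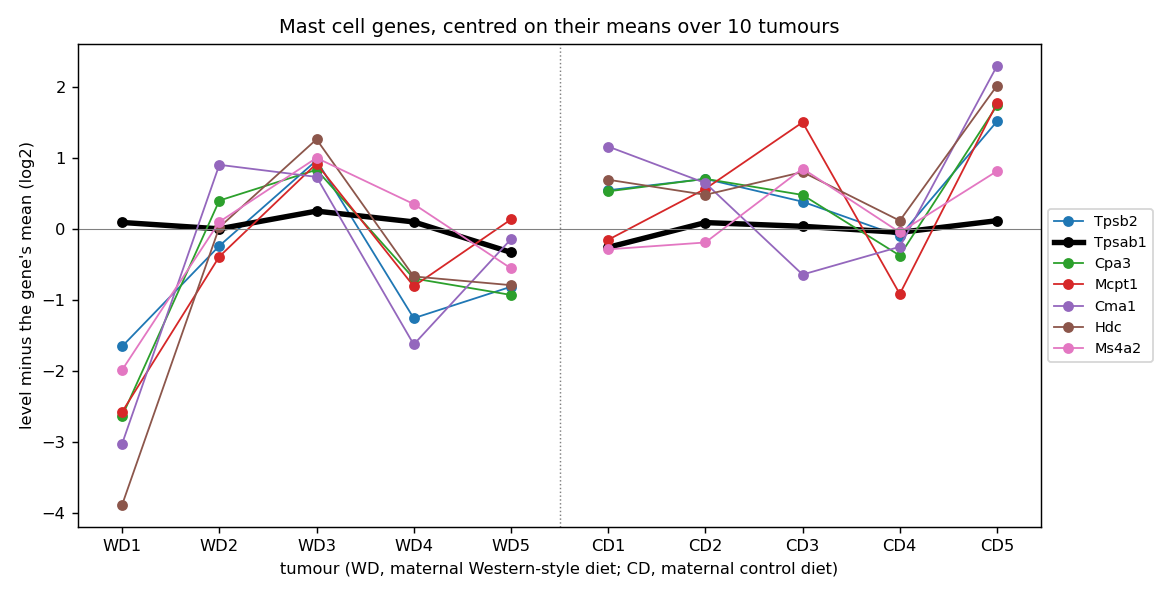
Level of each measured gene minus its own mean over the 10 tumours (log2), by tumour, WD tumours on the left and CD tumours on the right. The coloured lines of 6 genes dip in WD1 and peak in CD5 or WD3, while the black line of Tpsab1 stays near 0.

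Apart from Tpsab1 the genes varied together across tumours. The 15 pairs among Tpsb2, Cpa3, Mcpt1, Cma1, Hdc and Ms4a2 had Pearson r from 0.605 to 0.970 over 10 tumours, with a median of 0.872. By permutation, with Benjamini-Hochberg adjustment over 23 relations, 14 of the 15 passed 0.05 by Pearson's r and 8 by Spearman's rho. Cpa3 and Hdc had r = 0.970 and rho = 0.939 (permutation p = 2e-05 and 0.00023, adjusted 0.000153 and 0.00132), and r was 0.926 without WD1 and WD5, the tumours farthest from the median of Cpa3. Tpsb2 and Cpa3 had r = 0.934 and rho = 0.976 (permutation p = 3e-05 and 6e-05, adjusted 0.000172 and 0.00132), and Tpsb2 and Hdc r = 0.902 and rho = 0.939 (p = 1e-05, the smallest these permutations give, and 0.00019, adjusted 0.000115 and 0.00132). Without WD1 and WD4 these were 0.936 and 0.968. A tryptase, a carboxypeptidase and the histamine enzyme kept r above 0.9 with the farthest tumours left out.

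Some of the other pairs leaned on WD1 and CD5. Mcpt1 and Cma1 had r = 0.737 and rho = 0.539 (permutation p = 0.0161 and 0.115, adjusted 0.0246 and 0.156), and r was 0.177 without WD1 and CD5, so the relation of the chymases rests on those tumours. Cma1 and Ms4a2 had r = 0.605 and rho = 0.224 (permutation p = 0.0673 and 0.537, adjusted 0.0911 and 0.562), and r was -0.215 without them. Over the 15 pairs, r ran from -0.215 to 0.968 with the 2 farthest tumours left out and from 0.101 to 0.961 without WD1. With each group centred on its own mean and WD1 kept in, it ran from 0.562 to 0.959. The 6 pairs with Tpsab1 had r from -0.080 to 0.340, and 0 of them passed (lowest adjusted p 0.420 by r and 0.124 by rho). Without WD1 those 6 ran from 0.058 to 0.805, the highest with Ms4a2. Tpsb2 and Tpsab1 had r = 0.218 and rho = 0.321 (permutation p = 0.546 and 0.370, adjusted 0.661 and 0.425), and r was 0.682 without WD1 and WD4. Slides held 3 or 4 tumours, too few for a correlation within a slide.

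**Figure D4:**
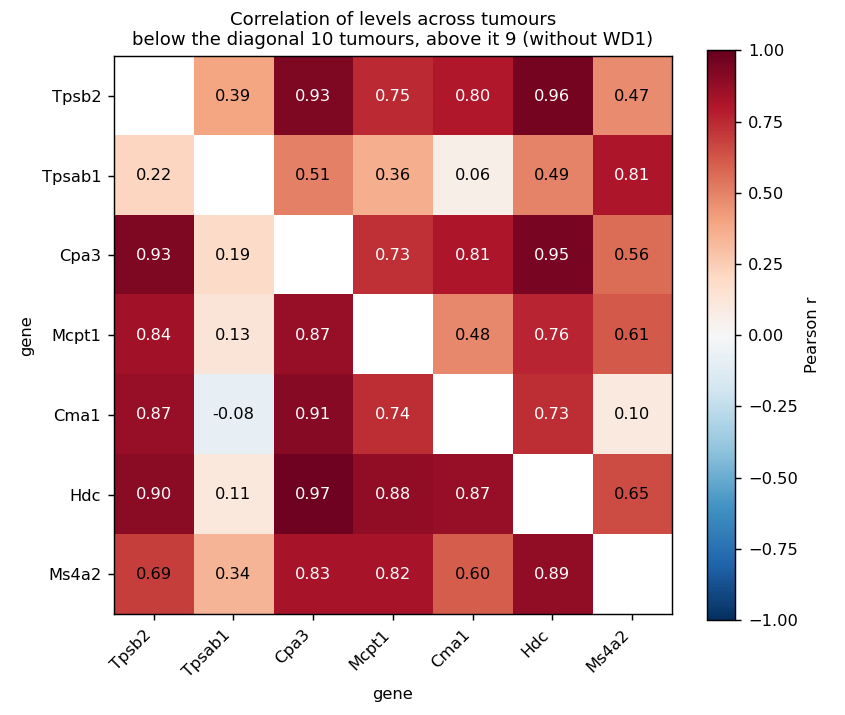
Pearson r between the levels of each pair of measured genes, over 10 tumours below the diagonal and over 9 tumours, without WD1, above it. The Tpsb2, Cpa3 and Hdc squares stay above 0.90 in both, the Tpsab1 row and column are pale below the diagonal, and Cma1 with Ms4a2 goes to 0.10 without WD1.

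Among 2132 other genes with a symbol and an SD of at least 0.5, those whose levels were most like the mean of the 7 scaled genes were Tnfsf10 (r = 0.934 over 10 tumours), Tmem150c (0.923), Clybl (0.911), Emp2 (0.906), Slc23a1 (0.904), Cbs (0.898), Prim1 (0.886) and Ctse (0.877). The likeness is a description over tumours that share the same extremes. Without WD1 it ran from 0.722 for Ctse to 0.931 for Slc23a1. Tnfsf10 and Slc23a1 were well above background on 4 of 5 WD arrays and Clybl on 3 of 5, so their low ends lie near background. Tnfsf10 (A_42_P733671) read -2.55, -0.71, -0.40, -1.15 and -0.99 in WD1 to WD5, against -0.67, 0.07, -0.37, -0.85 and 0.13 in CD1 to CD5, with WD1 lowest as for the mast cell genes.

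Cma1 and Mcpt1 lie in a cluster of related proteases on chromosome 15. Between Cma1 and Gzmb the RefSeq order has 29 protein-coding genes, of which 13 had a probe and 5 were kept: Cma1, Mcpt8l2, Mcpt8, Mcpt9 and Mcpt1. This region, and Mcpt8l2 in it, were chosen after their values were seen. Mcpt8 (A_44_P454157), known in the mouse as a protease of basophils, had levels of 5.34, 0.54, 0.39, 4.05 and 1.15 in WD1 to WD5, against -0.23, 0.45, 1.79, 0.64 and 0.55 in CD1 to CD5. Its neighbour Mcpt8l2 (A_44_P530801) had levels of 5.58, 1.70, 2.46, 5.20 and 2.60 in WD1 to WD5, against 0.98, 1.48, 3.52, 1.98 and 1.88 in CD1 to CD5. Both were highest in WD1 and WD4, the tumours in which Cma1 was lowest. The group means were 2.29 ± 2.26 in WD and 0.64 ± 0.73 in CD for Mcpt8 (SD, n = 5 each), a difference of 1.66 or 3.15-fold higher in WD (limma adjusted p 0.393), and 0.89 without WD1. For Mcpt8l2 they were 3.51 ± 1.76 in WD and 1.97 ± 0.96 in CD (SD, n = 5 each), a difference of 1.54 (limma adjusted p 0.354), and 1.02 without WD1.

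Mcpt9 (A_44_P102298) also read highest in WD1 (1.79) and WD4 (1.39), with -2.85, -2.57 and -0.53 in WD2, WD3 and WD5, against -1.81, -1.19, 0.64, -1.13 and -0.89 in CD1 to CD5. Its mean difference was 0.32 (limma adjusted p 0.889), and it was -0.26 without WD1 and -0.16 without WD4. These genes are close relatives, and the probes could share signal between copies that have no probe of their own. Mcpt3, Mcpt4, Ctsg (cathepsin G) and Gzmf were well above background on 0 arrays. Mcpt10 had no probe by that symbol.

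**Figure D5:**
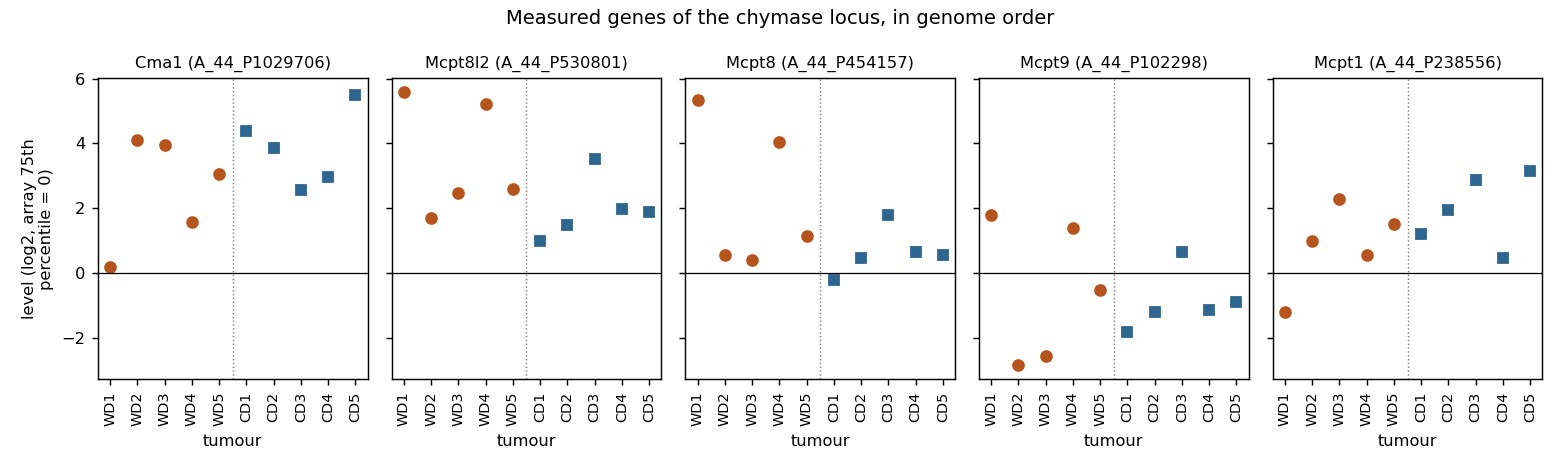
Level (log2, with the 75th percentile of the array at 0) of the 5 measured genes of the protease cluster on chromosome 15, in genome order, in WD tumours (orange circles) and CD tumours (blue squares). Mcpt8l2, Mcpt8 and Mcpt9 are highest in WD1 and WD4, where Cma1 is lowest.

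Other genes of the mast cell were read from lists, by count and median, beside a median of 0.01 over all genes; 0 genes of any list passed limma's adjusted test. Of the 17 further granule proteases 12 had a probe and 3 were kept, 2 of them higher in WD (Mcpt8 and Mcpt9, above). Of the 10 granule matrix and mediator genes 8 were kept, 6 of them lower and 2 higher in WD, with a median difference of -0.33. The serglycin gene Srgn, the core of the granule proteoglycan, had means of 2.02 ± 0.50 in WD and 2.31 ± 0.57 in CD (SD, n = 5 each; -0.29, limma adjusted p 0.670). The heparin-modifying enzyme Ndst2 differed by 0.35 (adjusted p 0.333), the cyclooxygenase Ptgs1 by -0.63 (0.359), and the leukotriene enzymes Ltc4s by -0.67 (0.520) and Alox5 by 0.78 (0.478). Hpgds, the prostaglandin D synthase of mast cells, was well above background on 0 WD arrays and 1 CD array.

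The receptor and growth factor signalling list held 24 genes, of which 17 were kept, 7 lower and 10 higher in WD, with a median difference of 0.35. At an unadjusted p under 0.05 limma gave 1 lower, Kitlg, and 3 higher, Btk, Cd200r1 and Syk, beside 7.72% of all genes lower and 7.80% higher. Kitlg, the stem cell factor that mast cells need to survive, had levels of 4.54, 4.82, 5.13, 5.16 and 4.97 in WD1 to WD5, against 5.34, 5.05, 5.52, 5.75 and 5.36 in CD1 to CD5. Its means were 4.92 ± 0.26 in WD and 5.40 ± 0.25 in CD (SD, n = 5 each), a difference of -0.48 (limma adjusted p 0.241), and -0.30 as the mean of its probes. Its receptor Kit was well above background on 2 WD and 3 CD arrays and differed by 0.56 (limma adjusted p 0.476; 0.29 without WD1, 0.37 without CD5, and 0.06 in the authors' series matrix). The kinases Btk and Syk and the inhibitory receptor Cd200r1 serve other immune cells too, and differed by 0.57 (limma adjusted p 0.186) for Btk and 0.48 (0.256) for Syk, while Cd200r1 was 2.14-fold higher in WD (0.188). Btk was dim, well above background on 2 WD and 3 CD arrays. In the authors' series matrix the differences were 0.10 for Btk, 0.23 for Syk and 0.31 for Cd200r1. With normexp they were 0.17, 0.24 and 0.34. Fcer1g, the gamma chain that IgE receptors share with other Fc receptors, was 3.20 ± 0.88 in WD and 2.72 ± 0.39 in CD (SD, n = 5 each; 0.48, limma adjusted p 0.560; 0.22 without WD4 and 0.82 without WD2).

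The transcription factors Gata1, Gata2 and Mitf, which are known from the mouse to drive mast cell genes, were well above background on 0 arrays. Each was read by 1 probe, which does not show that the transcript was absent. Of the 9 factors on the list 4 were kept. Stat5b differed by -0.79 (limma unadjusted p 0.0287, adjusted p 0.268; -0.19 with array brightness as a covariate), Tal1 by -1.07 (0.336; -0.51 without CD1 and -0.34 as the mean of its probes), Tcf4 by 0.25 (0.558) and Stat5a by -0.06 (0.901). Histamine receptors and breakdown enzymes gave no measure to set beside Hdc: Hrh1, Hrh3, Hrh4, Hnmt, Aoc1 and Maob were well above background on 0 arrays, and Hrh2 had no probe by that symbol.

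Of the 15 genes for protease targets and inhibitors 11 were kept, 7 lower and 4 higher in WD, with a median difference of -0.20. The serpin genes differed in both directions. Serpina3n was -0.59 ± 1.05 in WD and -2.34 ± 0.96 in CD (SD, n = 5 each), 3.35-fold higher in WD (limma unadjusted p 0.00834, adjusted p 0.202), with 4 WD and 2 CD arrays well above background and a difference of 0.57 in the authors' series matrix. Serpinb9, an inhibitor of granzyme B, was -0.06 ± 0.97 in WD and 1.23 ± 0.80 in CD, 2.43-fold lower in WD (limma unadjusted p 0.0226, adjusted p 0.256; -0.74 with array brightness as a covariate). Serpina1, the antitrypsin gene, differed by -0.85 (adjusted p 0.328). The receptor Agtr1a for angiotensin II, a peptide that chymase can form, differed by -1.32 (adjusted p 0.362) and by -0.82 without WD1.

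Marker lists of other cells also differed in mean level between the groups. All 11 measured macrophage genes were higher in WD on average (median 0.62), with list means of 1.41 to 3.42 in WD tumours and 1.96 to 2.64 in CD tumours. The T and NK cell list had 6 measured genes, each with a higher mean in WD (median 0.89; 0.12 to 1.79 in WD, -0.44 to 0.77 in CD), as did all 9 fibroblast genes (median 0.77; 1.98 to 3.74 in WD, 1.36 to 3.03 in CD). Of the 10 luminal epithelial genes 7 were lower (median -0.53; 2.35 to 2.91 in WD, 2.79 to 3.43 in CD), and of the 5 basal genes 4 were lower (median -0.17; 1.53 to 2.53 in WD, 1.59 to 3.45 in CD). Their part in the mast cell differences was not tested. WD1, the tumour lowest in mast cell genes, lay within the range of the other tumours in the macrophage (3.03), T and NK cell (1.01) and fibroblast (3.13) lists. Its mean was the highest of all tumours in the endothelial list (-0.30) and in the adipocyte list (0.26, with 2 measured genes of 7 on the array). These are list means, and WD1 was not the highest tumour for every gene of either list. Of the 5 measured endothelial genes 2 were lower and 3 higher, and of the 4 neutrophil genes 1 was lower and 3 higher. Eosinophil genes gave 1 kept gene of 7 on the array, with 5 on 0 arrays, and B and plasma cell genes 0 of 3.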

How the data were processed

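RNA of 10 rat mammary tumours (200 ng each) was labelled with Cy3 and measured on 1 Agilent 1-colour array per tumour, a number that limits the precision. The authors used Agilent Feature Extraction, version 11.5.1.1 per the file headers and 15.5 per the submitters' processing notes. The deposited array files hold spot intensity values: processed signals (background-subtracted, with no scaling between arrays, per the file headers) and median pixel signals of spot and local background. The deposited files also hold 0 or 1 marks per spot for signal well above background, saturation and outliers. The deposited series matrix holds log2 values whose rank order equals that of the array's own median signals (Spearman correlation 1 on all 10 arrays). Quantile normalisation without background subtraction was inferred from the values, the column medians were 6.97 to 6.98, and no source used here names the tool.

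An array had 45018 spots, of which 1639 were controls and 43379 measured 41012 probes. Levels are log2 processed signals minus the array's 75th percentile over measuring spots, with no pseudocount; outlier spots were left out and spots of a probe averaged. Probes well above background on at least 5 of 10 arrays were kept (19745), with 1 probe a gene, that of highest mean level (16779 genes, 8270 with a symbol). RefSeq (GRCr8) named 17502 probes (42.7%) through their transcript identifiers; the array annotation is on another build, so no probe positions are given. Promoter letters came from the same RefSeq release, without the 50 bases after the start. The test of WD against CD was limma's (version 3.58.1, in R 4.3.3, files read by the data.table package, 1.17.8), with Benjamini-Hochberg adjustment over all genes and a threshold of 0.05, and single genes were also tested by exact two-sided permutation. Correlations used 1e+05 permutations. Python 3.11.15 with Biopython 1.88 aligned the promoters, and matplotlib 3.10.9 drew the plots. The fit was tested on simulated data.

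The alternatives were normexp (offset 50), quantile or detected-probe scaling, the series matrix, other filters and probe rules, slide, replicate number or array brightness (log2 of the 75th percentile) in the fit, and leaving out each tumour. Normexp was planned on mean signals and was run on median signals, which the files hold. The genes of the set, the 16 gene lists, the rule for named genes and the tests were chosen with earlier results of these data known. That rule names the genes of the set, up to 4 genes of smallest p per list, 12 fixed genes and the 8 genes most like the set; Mcpt8l2 was added after its values were seen, and lists of other cell types are given by counts, medians and list means only. 1 gene that this rule names is not reported here.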

Additional observations from a re-analysis of the deposited data

Results flagged for a closer look

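In 2 of 75 groups of 5 tumours tested for a tumour far from the others, the CD5 tumour stood apart from the other CD tumours. Chance gives about 1 in 20, so 2 of 75 is no more than chance gives. Its level was 3.32 for Ndst2, where the other CD tumours lay between 2.71 and 2.84. Its level was 5.09 for Tmem150c, where they lay between 4.02 and 4.26. Tmem150c had been named for its likeness to the mast cell set, in which CD5 was high. WD tumours read higher than CD5 for both genes, with Ndst2 at 3.49 in WD2 and Tmem150c at 5.295 in WD3. No tumour stood apart by this measure in the genes of the mast cell set.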

How the results depend on the processing

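The count of genes with an adjusted p under 0.05 was 0 under all 20 alternatives in limma (lowest adjusted p 0.074 to 0.999). At an unadjusted p under 0.05 limma gave 2603 genes, 496 with normexp background correction (148 lower in WD), 7055 of 36061 without a filter on dim probes (1058 lower), 963 with array brightness as a covariate (499 lower) and 1853 to 3283 with each tumour left out in turn; the cause was not tested. Tpsb2, Cpa3, Mcpt1, Cma1, Hdc, Ms4a2 and Fcer1a were lower in WD under every alternative run, none with an adjusted p under 0.05. Leaving out each tumour gave -1.60 to -0.95 for Tpsb2, -1.58 to -0.71 for Cpa3, -1.46 to -0.59 for Mcpt1, -1.66 to -0.68 for Cma1, -2.15 to -0.87 for Hdc and -0.75 to -0.0039 for Ms4a2. Tpsab1, 0.04 in the comparison above, was -0.020 with the slide as a block, -0.089 with array brightness as a covariate and -0.026 to 0.124 with each tumour left out (-0.022 without WD3, -0.026 without CD1). With array brightness as a covariate Tcf4 was -0.016 and Stat5a 0.055, and with each tumour left out Stat5a ran from -0.155 to 0.060 (0.023 without WD4) and Mcpt9 from -0.264 to 0.898 (-0.162 without WD4). Same-numbered tumours did not deviate together (r of deviations from the group means -0.017 to 0.160). These r values cannot exclude a pairing of the tumours by number. The fit with the replicate block gave 2676 genes at an unadjusted p under 0.05. It left the differences of the mast cell genes as they were, with no adjusted p under 0.05. Its limma unadjusted p was 0.0147 for Mcpt1, 0.0454 for Hdc and 0.0197 for Tpsb2. Without the block these were 0.122, 0.0575 and 0.0224. Hdc and Ms4a2 dropped out when all 10 arrays had to be well above background, and alternatives for Fcer1a came from fits without the filter. Signal over background limits Fcer1a, Ms4a2 and the low end of Hdc.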
